A study of Mus musculus with 6 samples.

Results

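Long intergenic noncoding RNAs (lincRNAs) were examined in mouse bone marrow-derived macrophages, phagocytes grown from marrow progenitors in culture. The genes described are those that the GENCODE vM21 annotation types as lincRNA and that had at least 300 counts summed over the 6 libraries. They number 158 of 5628 annotated lincRNA genes, and of 55263 genes of all types in the count table. Of the 5628, 1776 had any count at all.

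Poly-A RNA was sequenced from 3 groups of 2 libraries. One group received LPS, the bacterial lipopolysaccharide that activates macrophages through Toll-like receptor signalling, together with HACA, a name the labels do not spell out. The second received LPS alone, and the third was the control, labelled wild type. Strain, sex, age, dose and time are not in the labels, and no label says that the 2 libraries of a group came from separate cultures. The p-values below therefore measure only the spread between these libraries, which may be technical.

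A lincRNA gene is transcribed by RNA polymerase II between protein-coding genes and yields a spliced or unspliced RNA without a long reading frame. Some lincRNAs stay in the nucleus as structural RNAs, some are the primary transcripts from which microRNAs are cut, and some act on genes beside them or on distant genes. In macrophages several lincRNAs are known to respond to Toll-like receptor ligands, among them the host transcript of miR-155 and lincRNA-Cox2.

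The members' annotated sequences are shown first for the loci on which the results turn. The 3 microRNA host genes among the members carry the microRNAs below on their own strand, and the RefSeq mature sequences (GRCm38.p6) are given 5′ to 3′ with the seed, bases 2 to 8, in capitals. The counts below are those of the host transcripts, and mature microRNAs were not measured. Mir155hg carries one hairpin on chromosome 16.

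mmu-miR-155-5p: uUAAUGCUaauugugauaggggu
mmu-miR-155-3p: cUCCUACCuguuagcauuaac

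Mir17hg, on chromosome 14, carries the miR-17-92 cluster. The miR-17-5p and miR-20a-5p products share one seed, and miR-19a-3p and miR-19b-3p share another, which is why these arms are set together.

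mmu-miR-17-5p: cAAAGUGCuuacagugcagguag
mmu-miR-20a-5p: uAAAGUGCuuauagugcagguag
mmu-miR-18a-5p: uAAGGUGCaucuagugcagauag
mmu-miR-19a-3p: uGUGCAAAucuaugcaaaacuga
mmu-miR-19b-3p: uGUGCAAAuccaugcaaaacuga
mmu-miR-92a-3p: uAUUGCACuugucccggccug

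Mir142hg, on chromosome 11, carries the blood-cell microRNA miR-142.

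mmu-miR-142a-5p: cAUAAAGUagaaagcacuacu
mmu-miR-142a-3p: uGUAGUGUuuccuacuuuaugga

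Promoter windows of 250 bases before to 50 after the RefSeq start were matched for 64 members. Those of 4 members with large changes whose windows held a motif match are printed on the gene's own strand. They were chosen after the matches were seen. The windows of Mir155hg, A130077B15Rik and Gm10825, which also had large changes, held none of the 5 motifs searched. The RefSeq start of Mir155hg lies 9856 bases from its GENCODE start. Gm13391, also with a large change, had a window with the motif TATAAA and another with none. Their RefSeq starts lie 3607 and 5921 bases from its GENCODE start. Capitals mark a motif match, and the RefSeq and GENCODE starts of the 4 printed genes differ by at most 33 bases. In Ptgs2os2, at chr1:150164899-150165198 on the minus strand, the capitals are the interferon-stimulated response element (ISRE), searched as GAAA, any 2 bases and GAAA, read on the opposite strand.

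Ptgs2os2: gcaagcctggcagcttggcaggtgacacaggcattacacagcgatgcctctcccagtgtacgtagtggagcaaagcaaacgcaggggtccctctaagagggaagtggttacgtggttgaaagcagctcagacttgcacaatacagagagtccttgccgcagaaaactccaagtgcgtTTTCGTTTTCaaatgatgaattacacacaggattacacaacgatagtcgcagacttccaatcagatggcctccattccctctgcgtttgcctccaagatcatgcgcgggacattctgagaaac

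In Gm34643, at chr14:103012625-103012924 on the plus strand, they are the AP-1 motif TGANTCA.

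Gm34643: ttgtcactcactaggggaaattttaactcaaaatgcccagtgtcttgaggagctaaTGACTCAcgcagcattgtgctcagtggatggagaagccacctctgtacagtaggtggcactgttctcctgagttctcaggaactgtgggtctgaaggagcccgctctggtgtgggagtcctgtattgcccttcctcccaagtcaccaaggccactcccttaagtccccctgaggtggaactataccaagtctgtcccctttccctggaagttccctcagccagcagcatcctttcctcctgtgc

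In Gm14963, at chr19:6276529-6276828 on the minus strand, they are the TATA motif TATAAA read on the opposite strand. That is the strand of Ehd1, the gene whose body lies 120 bases from that of Gm14963 and that is transcribed in the other direction. By its position in the window the match lies inside the Ehd1 gene body, not before its start.

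Gm14963: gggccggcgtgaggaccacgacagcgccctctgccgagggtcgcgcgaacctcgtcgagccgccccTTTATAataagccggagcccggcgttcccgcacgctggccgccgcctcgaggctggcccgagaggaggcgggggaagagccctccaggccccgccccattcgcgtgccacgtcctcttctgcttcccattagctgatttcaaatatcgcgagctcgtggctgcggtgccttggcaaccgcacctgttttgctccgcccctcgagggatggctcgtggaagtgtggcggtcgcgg

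In 5031425F14Rik, at chr2:166447201-166447500 on the plus strand, they are the PU.1 motif GAGGAAGT read on the opposite strand. PU.1 is the lineage factor of macrophages.

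5031425F14Rik: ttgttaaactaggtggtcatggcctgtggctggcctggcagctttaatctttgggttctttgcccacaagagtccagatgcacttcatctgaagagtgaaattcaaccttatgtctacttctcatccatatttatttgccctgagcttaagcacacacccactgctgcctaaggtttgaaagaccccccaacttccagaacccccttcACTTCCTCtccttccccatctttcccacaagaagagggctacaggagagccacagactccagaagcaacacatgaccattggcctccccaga

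Library totals lay between 12529874 and 15379496 counts. All 13 macrophage markers were detected, with Lyz2 at 30358 to 47787 CPM (counts scaled to the TMM-normalised library size, not to gene length), though Adgre1 reached 0.394 to 0.674 CPM and Itgam 0.193 to 1.82 CPM. Summed stromal markers stood at 50.4 and 1.42 CPM in LPS+HACA, 32.6 and 2.70 CPM in LPS, and 47.9 and 1.72 CPM in control (replicates 1 and 2). Col1a1 and Col1a2 made up most of each sum, and 4 of the 10 listed genes were higher in replicate 1 in every group. Summed cycling-cell markers stood at 1406.5 and 376.7 CPM in LPS+HACA, 1903 and 1073 CPM in LPS, and 714.7 and 199.6 CPM in control. Mki67 made up most of each sum, and 9 of the 10 listed genes were higher in replicate 1 in every group. Between LPS and control the genes disagreed. At each replicate number Mki67, Top2a, Pcna and Ccna2 were higher in LPS, and Birc5, Cdk1 and Ccnb1 were lower. Mcm2, Mcm3 and Mcm5 differed by replicate number. Summed neutrophil markers were higher in replicate 2, at 4.98 and 37.1 CPM in LPS+HACA, 13.8 and 64.2 CPM in LPS, and 7.59 and 39.9 CPM in control. Ngp made up most of each sum, and 2 of the 8 listed genes were at 0 in every library. The replicate differences in these sums were present inside every group, and their part in the results below was not tested.

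The 158 members held 98.3% of all lincRNA counts. They made up 4.25% and 3.82% of a library in LPS+HACA, 2.69% and 3.13% in LPS, and 4.22% and 3.92% in control. Gm26917 and Malat1 alone accounted for 86.6% to 91.2% of the members' counts. Most of the set was of low abundance, since the median summed count over all 158 was 644.5 and 105 members had under 1000 counts. At least 10000 counts were held by 7, Gm26917 and Malat1 among them. Most were little-studied loci: 143 carried a predicted-gene, RIKEN or clone name, and 101 had a single annotated transcript. Chromosomes 2 and 17 held the most, with 14 members each.

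The choice on summed counts sets part of what follows, because it keeps a gene that is high in only 1 group. In each of the 3 groups 90 members had at least 100 counts, while 68 fell short in some group: 10 in LPS+HACA, 51 in LPS and 18 in control. All 158 passed the low-count filter and were tested. Just inside the threshold lay Gm5165 with 308 counts and Gm10419 and Gm32856 with 307 each, and just outside lay AC156982.1 with 299, AC160336.1 with 289 and Gm16973 with 287.

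The deposited FPKM scale is per transcript length, and each gene's most-counted transcript alone was used, so its other transcripts are left out. On that scale the median member stood at 4.08 in LPS+HACA, 4.22 in LPS and 3.90 in control. Members with a mean of at least 1 FPKM numbered 147 in LPS+HACA, 134 in LPS and 145 in control. Gm26917 was the highest, at 4535 FPKM in LPS+HACA, 6602 in LPS and 4595 in control. Malat1 followed at 2029 FPKM in LPS+HACA, 1833 in LPS and 2132 in control. Far below came Mir142hg at 171 FPKM in LPS+HACA, 209 in LPS and 164 in control. The short RNA Bc1 lay beside it at 176 FPKM in LPS+HACA, 232 in LPS and 157 in control. Bc1, known in rodents as a neuronal polymerase III transcript, was named after its values were seen.

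Gm26917, a chromosome 17 locus (39843013-39846341, plus strand) grouped with the loci at ribosomal DNA repeats, took more counts than any other member. Its level was 20854 and 10403 CPM in LPS+HACA, 16872 and 28404 CPM in LPS, and 21190 and 9715 CPM in control. The groups overlapped, and replicate 1 was higher in LPS+HACA and control but lower in LPS. The log2 difference was 0.55 ± 0.48 for LPS against control (SE; adjusted p = 0.433) and -0.53 ± 0.48 for LPS+HACA against LPS (adjusted p = 0.5).

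Malat1 (chromosome 19, 5795690-5802672, minus strand) is an abundant nuclear RNA of splicing speckles. It measured 10961 and 18903 CPM in LPS+HACA, 12398 and 13846 CPM in LPS, and 10747 and 19567 CPM in control. Replicate 1 was the lower library in every group, and in LPS+HACA and control it fell below both LPS libraries while replicate 2 lay above them. LPS against control gave -0.21 ± 0.34 (adjusted p = 0.687) and LPS+HACA against LPS gave 0.19 ± 0.34 (adjusted p = 0.75).

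**Figure D1:**
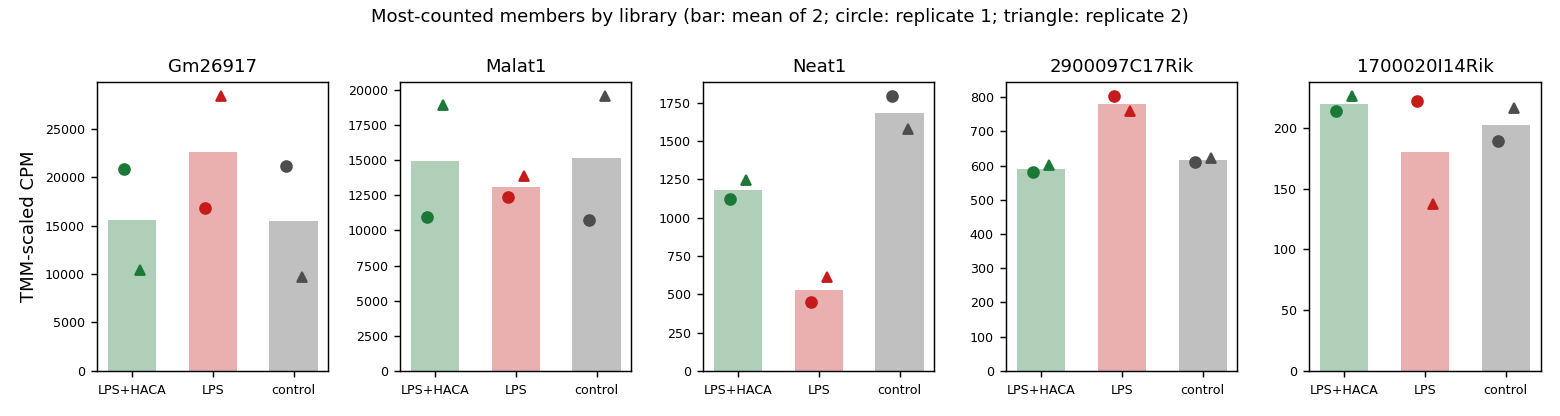
Levels of the 5 members with the most counts, as CPM of the TMM-scaled library on a linear axis from 0, with LPS+HACA, LPS and control from left to right; bars are means of 2 libraries, circles replicate 1 and triangles replicate 2. Neat1 separates the groups, with LPS at 446 and 612 CPM below both others, while the libraries of Gm26917 and Malat1 overlap between groups.

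Neat1, the Malat1 neighbour on chromosome 19 (5824708-5845478, minus strand) that builds nuclear paraspeckles, was lower after LPS. Its level was 1122 and 1245 CPM in LPS+HACA, 446 and 612 CPM in LPS, and 1794 and 1577 CPM in control. The 3 groups did not overlap, with LPS lowest and control highest. Means were 1184 ± 87.2 CPM in LPS+HACA, 529 ± 117 CPM in LPS and 1685 ± 153 CPM in control (SD, n = 2 each). Neat1 fell by 1.67 ± 0.22 on the log2 scale in LPS against control (adjusted p = 0.00151) and was higher by 1.16 ± 0.22 in LPS+HACA against LPS (adjusted p = 0.0163). The second call was lost without control replicate 2 or either LPS+HACA library (adjusted p 0.0501 to 0.0877). LPS+HACA against control was -0.51 ± 0.22 and did not pass (adjusted p = 0.42). Counts fell on 1 of its 4 annotated transcripts, so isoform use could not be separated from level.

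The conserved lincRNAs 2900097C17Rik (Norad, which binds Pumilio proteins) and 1700020I14Rik (Cyrano, which directs decay of miR-7) were not called. Norad stood at 581 and 601 CPM in LPS+HACA, 803 and 759 CPM in LPS, and 612 and 621 CPM in control. Its LPS libraries were both the highest, with log2 differences of 0.34 ± 0.18 for LPS against control (adjusted p = 0.186) and -0.40 ± 0.18 for LPS+HACA against LPS (adjusted p = 0.174). A member with closely related sequence, Gm7292, holds 77.5% of its own 50-base words in another gene, Norad, so their reads are uncertain. Cyrano measured 214 and 226 CPM in LPS+HACA, 222 and 138 CPM in LPS, and 189 and 216 CPM in control, and the groups overlapped. Malat1, the third member on the list of conserved lincRNAs, was not called in any comparison either.

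Between LPS and control, 32 members rose (20.3%) and 33 fell (20.9%) at an adjusted p under 0.05. Among all 17113 genes tested, 15.9% rose and 14.3% fell. Among the 9918 genes that had at least 300 counts, 22.2% rose and 14.7% fell, which is the closer background for genes chosen on counts. The members' share of rises lay near both backgrounds, and the share of falls lay above both. The median log2 difference was -0.09 over the members, -0.05 over all genes tested and 0.14 over genes with at least 300 counts. Without control replicate 1 the counts were 15 and 21, and without control replicate 2 they were 17 and 16. With libraries scaled by their totals, 19 members rose and 59 fell, a scaling that put the median of all genes at -0.69.

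Rises ranged from 0.92 to 9.36 on the log2 scale with a median of 2.12, and 18 of the 32 were past 4-fold. Falls ranged from -6.59 to -0.94 with a median of -1.67, and 13 of the 33 were past 4-fold. The members that changed were mostly of low count, with medians of 827.5 summed counts for rises and 643 for falls, and Neat1 was the most-counted of them at 100216. Because the samples are bulk cultures, fewer cells of a type and less RNA per cell cannot be told apart for any of these falls.

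**Figure D2:**
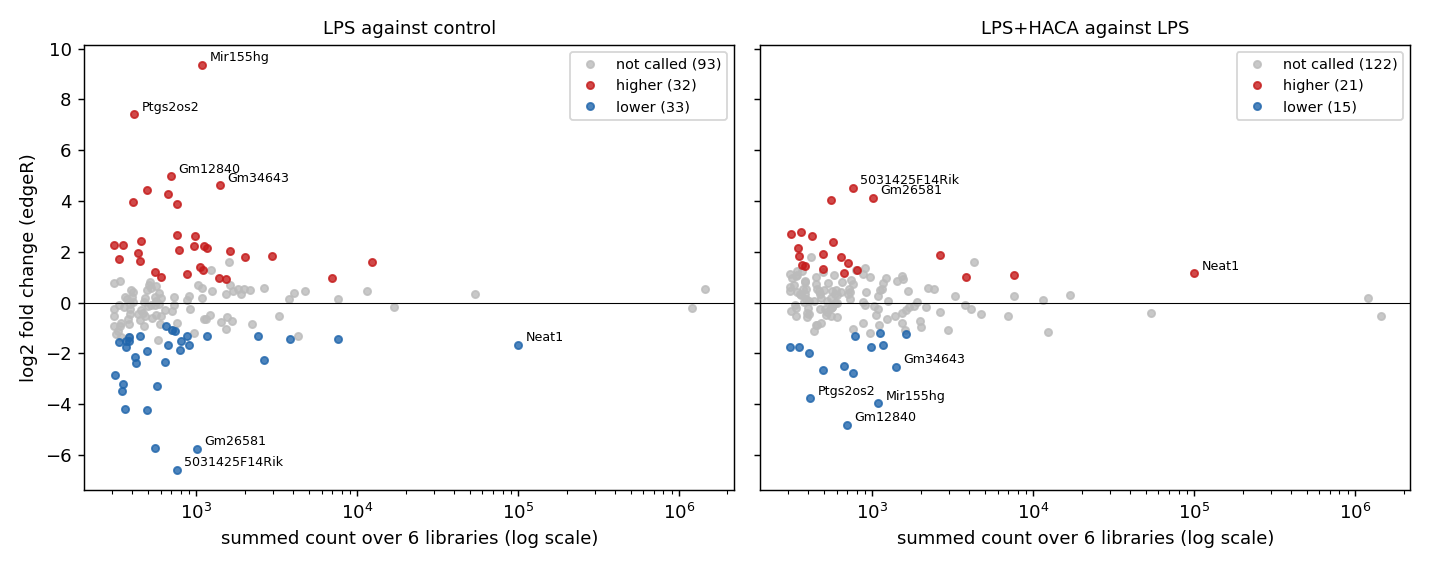
Log2 fold change from edgeR (vertical axis) against the summed count over 6 libraries (horizontal axis, log scale) for the 158 members, LPS against control on the left and LPS+HACA against LPS on the right; red points rose, blue points fell and grey points were not called. Mir155hg stands at 9.36 on the left and -3.97 on the right, and Neat1 is the called member farthest to the right in both.

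Mir155hg (chromosome 16, 84703167-84715245, plus strand), the host transcript of miR-155, a microRNA that tunes inflammatory signalling, had the largest rise. It measured 2.49 and 3.65 CPM in LPS+HACA, 46.2 and 50.4 CPM in LPS, and 0.0627 and 0.0661 CPM in control. The 3 groups were far apart, with LPS+HACA between LPS and control. The LPS libraries held 992 counts and the control libraries 2, a ratio of scaled counts of 750 with an exact 95% interval of 207 to 6200. That interval and the others here cover counting error only. The fitted rise in LPS against control was 9.36 ± 0.44 (adjusted p = 7.9e-05), and the fitted difference of LPS+HACA against LPS was -3.97 ± 0.30 (adjusted p = 0.00165).

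The other microRNA hosts, Mir17hg and Mir142hg, were not called. Mir17hg had 9.05 and 24.5 CPM in LPS+HACA, 19.2 and 51.2 CPM in LPS, and 8.28 and 14.7 CPM in control. Replicate 2 was the higher library in each group, and both LPS libraries lay above both control libraries. LPS against control gave 1.61 ± 0.64 (adjusted p = 0.102). That call depended on the method, since the gene passed with DESeq2 (1.62, adjusted p = 0.0239) and without a low-count filter (1.60, adjusted p = 2.97e-05). Mir142hg measured 41.0 and 55.8 CPM in LPS+HACA, 45.1 and 70.6 CPM in LPS, and 39.6 and 49.8 CPM in control, with overlapping groups and a log2 difference of 0.37 ± 0.29 in LPS against control (adjusted p = 0.373). Of 16 listed microRNA hosts, 3 were members, since others are typed differently in the annotation or had too few counts.

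Ptgs2os2 (chromosome 1, 150159043-150164948, minus strand), known as lincRNA-Cox2, a regulator of immune genes in mouse macrophages, was the next largest rise. Its level was 1.58 and 1.01 CPM in LPS+HACA, 21.7 and 14.2 CPM in LPS, and 0.188 and 0 CPM in control. LPS was highest in both libraries, and control was at or near 0. The LPS libraries held 367 counts and the control libraries 3, a ratio of 185 with an interval of 62.8 to 901. The fitted values were 7.41 ± 0.72 in LPS against control (adjusted p = 0.000428), moving to 10.9 without control replicate 1 and 6.51 without control replicate 2, and -3.77 ± 0.53 in LPS+HACA against LPS (adjusted p = 0.00698).

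Gm14005 (chromosome 2, 128178319-128502765, minus strand), known as Morrbid, regulates survival of short-lived myeloid cells through the neighbouring gene Bcl2l11. It measured 3.22 and 4.94 CPM in LPS+HACA, 19.8 and 35.9 CPM in LPS, and 1.57 and 2.18 CPM in control. LPS lay above both other groups without overlap. Gm14005 rose by 3.89 ± 0.43 in LPS against control (adjusted p = 0.000688) and fell by 2.77 ± 0.40 in LPS+HACA against LPS (adjusted p = 0.00741). Without LPS+HACA replicate 1 that fall did not pass (adjusted p = 0.0556). Gm14010, whose gene body lies inside that of Gm14005 on the other strand, moved with it. It had 1.70 and 4.12 CPM in LPS+HACA, 14.1 and 22.6 CPM in LPS, and 0.941 and 0.728 CPM in control, a rise of 4.44 ± 0.53 in LPS against control (adjusted p = 0.000948). Gm14010 fell by 2.66 ± 0.47 in LPS+HACA against LPS (adjusted p = 0.0129). That fall was 3.43 without LPS+HACA replicate 2, and its call was lost without LPS+HACA replicate 1 (adjusted p = 0.0678).

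Of the 10 genes listed as linked to innate immunity, 5 were members, and 3 of these rose in LPS against control (Mir155hg, Ptgs2os2 and Gm14005) while Neat1 fell and Malat1 was not called. In LPS+HACA against LPS the same 5 members had 3 falls (Mir155hg, Ptgs2os2 and Gm14005) and 1 rise (Neat1). Mir155hg, Ptgs2os2 and Gm14005 reached 300 counts only through the LPS libraries, so these counts describe the members and are no support for a direction of the list. Over all genes tested, 15.9% rose and 14.3% fell in LPS against control, and 5.74% rose and 7.67% fell in LPS+HACA against LPS.

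Gm34643 (chromosome 14, 103012908-103024457, plus strand) was the rise with the most counts among the 8 largest. It measured 7.83 and 10.2 CPM in LPS+HACA, 41.6 and 61.7 CPM in LPS, and 2.01 and 2.18 CPM in control. All 3 groups were separate, with LPS+HACA in the middle. The rise in LPS against control was 4.62 ± 0.33 (adjusted p = 0.000163) and the fall in LPS+HACA against LPS was -2.52 ± 0.30 (adjusted p = 0.0047).

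Gm12840 (chromosome 4, 117700188-117700923, plus strand) measured 1.15 and 1.01 CPM in LPS+HACA, 20.5 and 40.7 CPM in LPS, and 0.816 and 1.12 CPM in control. Both LPS libraries stood far above the other 4, and LPS+HACA overlapped control. It rose by 4.97 ± 0.44 in LPS against control (adjusted p = 0.00033) and fell by 4.80 ± 0.44 in LPS+HACA against LPS (adjusted p = 0.00266), the largest fall there among the members. Other genes hold 45.8% of its 50-base words, Gm20186 most of all, so the locus is uncertain.

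Gm14963 (chromosome 19, 6268795-6276605, minus strand) measured 3.83 and 4.73 CPM in LPS+HACA, 18.1 and 30.0 CPM in LPS, and 0.941 and 1.52 CPM in control. Gm17200 (chromosome 9, 123678096-123701046, plus strand) measured 3.58 and 3.18 CPM in LPS+HACA, 16.0 and 10.6 CPM in LPS, and 1.25 and 0.397 CPM in control. Neither overlapped between groups. Gm14963 rose by 4.28 ± 0.41 in LPS against control (adjusted p = 0.000411) and fell by 2.49 ± 0.37 in LPS+HACA against LPS (adjusted p = 0.00807), which did not pass without LPS+HACA replicate 1 (adjusted p = 0.0632). Gm17200 rose by 3.98 ± 0.52 in LPS against control (adjusted p = 0.00138; 5.01 without control replicate 1). Its fall of 1.97 ± 0.46 in LPS+HACA against LPS (adjusted p = 0.0302) was lost without LPS replicate 1 or either LPS+HACA library (adjusted p 0.0524 to 0.135), and stood at -1.35 under library totals (adjusted p = 0.0835). Gm17200 shares 37.5% of its exonic bases with another gene, and no source used here says whether counting used strand.

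**Figure D3:**
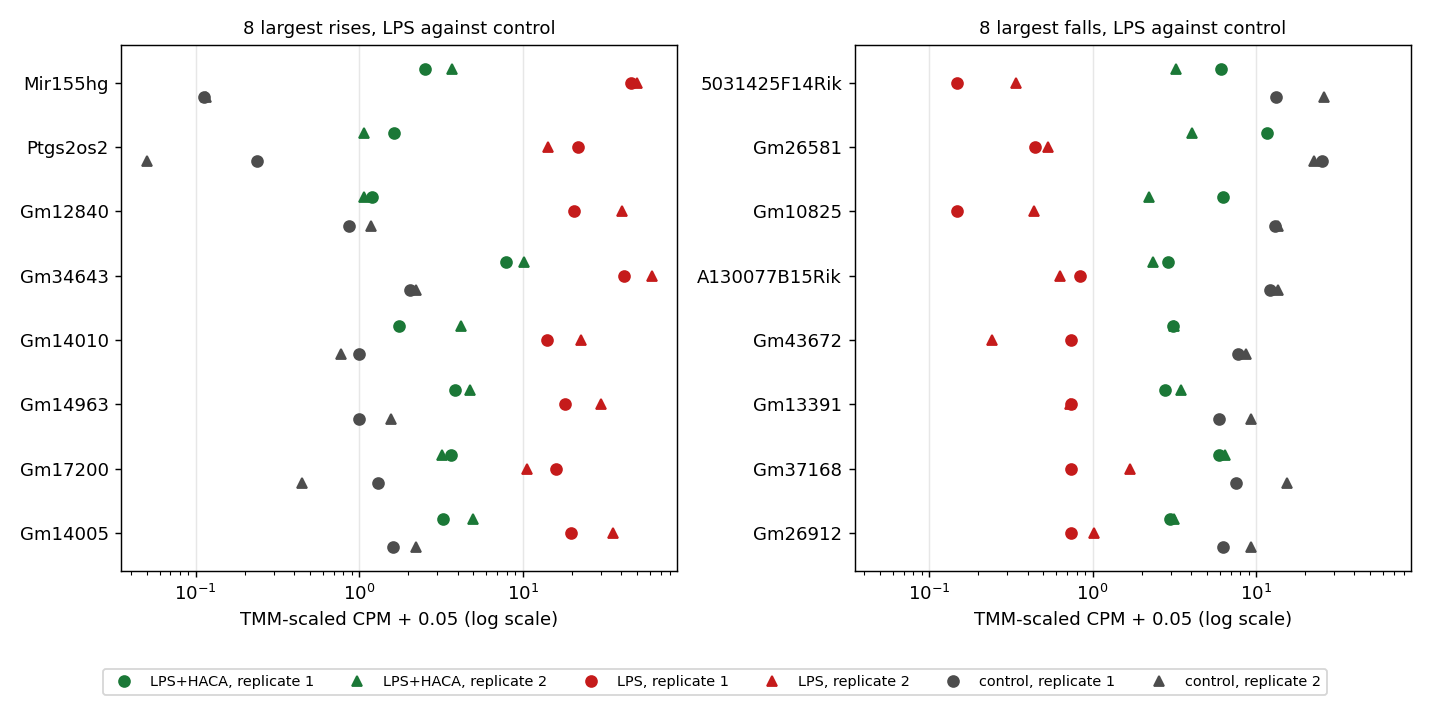
CPM of the TMM-scaled library plus 0.05 (horizontal axis, log scale) in each library for the 8 members with the largest rises (left) and the 8 with the largest falls (right) in LPS against control; colours give the group and shapes the replicate. LPS is to the right of the other groups in every row on the left and to the left of them in every row on the right, and the LPS+HACA libraries of Gm12840 reach only 1.15 and 1.01 CPM.

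The remaining 21 rises in LPS that met none of the naming criteria ran from 0.92 to 2.65, with a median of 1.84. Lncpint, a p53-induced transcript on chromosome 6 (31082565-31220488, minus strand), was a smaller rise. It had 69.7 and 95.1 CPM in LPS+HACA, 103 and 137 CPM in LPS, and 63.1 and 61.4 CPM in control, and the groups did not overlap. The rise was 0.95 ± 0.25 in LPS against control (adjusted p = 0.0242), lost without either control library or LPS replicate 2 (adjusted p 0.0685 to 0.149), and 0.29 with an adjusted p of 0.349 when libraries were scaled by their totals. Gm13833, inside the Lncpint gene body on the other strand, and Gm27019, within 50000 bases of Lncpint, were named for their position. They rose by 0.97 ± 0.26 (adjusted p = 0.0257) and 1.19 ± 0.34 (adjusted p = 0.0327) in LPS against control. Both calls were lost with library totals and without either control library or LPS replicate 2.

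Gm36161 on chromosome 13 (120010390-120018931, plus strand) was the most-counted rise. It measured 84.9 and 162 CPM in LPS+HACA, 186 and 370 CPM in LPS, and 67.8 and 116 CPM in control, with replicate 2 higher each time. It rose by 1.60 ± 0.45 in LPS against control (adjusted p = 0.0349), lost without either control library or LPS replicate 2 (adjusted p 0.0661 to 0.207) and, with libraries scaled by totals, at 0.91 (adjusted p = 0.112). Other genes, 71 of them, hold 68.9% of its 50-base words, so its reads are uncertain. Gm42047 and Gm42031 on chromosome 8, also among the 10 most-counted and with many shared words (64.8% and 59.0%), had log2 differences of 0.47 ± 0.39 and 0.13 ± 0.21 in LPS against control and were not called (adjusted p = 0.401 and 0.692).

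Trp53cor1, known as lincRNA-p21, which p53 induces beside the cell-cycle inhibitor gene Cdkn1a, was not called. It measured 14.6 and 19.9 CPM in LPS+HACA, 12.4 and 20.2 CPM in LPS, and 13.99 and 9.99 CPM in control, with a difference of 0.44 ± 0.34 in LPS against control (adjusted p = 0.352). Its neighbour Cdkn1a had 24.9 and 26.2 CPM in LPS+HACA, 35.5 and 76.7 CPM in LPS, and 12.2 and 8.86 CPM in control, a rise of 2.41 ± 0.39 in LPS against control (adjusted p = 0.00325). Another gene holds 44.1% of the exonic bases of Trp53cor1, and how shared reads were counted is not given in the sources used here, so its level is uncertain. Among 6 listed p53- and stress-linked lincRNAs, the 3 members gave 1 rise (Lncpint), 1 fall (Neat1) and no call (Trp53cor1).

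5031425F14Rik (chromosome 2, 166447451-166459232, plus strand) had the largest fall. It measured 6.07 and 3.18 CPM in LPS+HACA, 0.0985 and 0.289 CPM in LPS, and 13.3 and 26.0 CPM in control. The 3 groups did not overlap, and LPS was close to 0. The LPS libraries held 4 counts and the control libraries 605, so that control exceeded LPS by a ratio of 100 (interval 38.8 to 368). LPS+HACA libraries held 147 counts, 24.1 times the LPS level (interval 9.23 to 89.8). The fitted fall in LPS against control was -6.59 ± 0.67 (adjusted p = 0.00053; -7.52 without LPS replicate 2). LPS+HACA against LPS gave 4.51 ± 0.69 (adjusted p = 0.00851; 5.44 without LPS replicate 2).

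Gm26581 and Gm10825, neighbours on chromosome 10 (22212653-22217241 and 22402883-22407470, plus strand), are near copies, each with 85.6% of its 50-base words in other genes, mostly in its partner. Reads from the shared stretches cannot be told apart, so the pair may be 1 observation, though every count of members given includes both. Gm26581 measured 11.7 and 3.99 CPM in LPS+HACA, 0.394 and 0.482 CPM in LPS, and 25.4 and 22.7 CPM in control. Gm10825 measured 6.19 and 2.16 CPM in LPS+HACA, 0.0985 and 0.385 CPM in LPS, and 13.0 and 13.6 CPM in control. For both, the groups were separate and replicate 1 of LPS+HACA was well above replicate 2. The falls in LPS against control were -5.75 ± 0.62 (adjusted p = 0.000646) and -5.72 ± 0.71 (adjusted p = 0.00117). For Gm10825 the ratio of control to LPS was 54.5 (412 against 5 counts, interval 23.2 to 169), and its fitted value moved to -5.07 without LPS replicate 1 and -6.95 without LPS replicate 2. Both rose in LPS+HACA against LPS, by 4.13 ± 0.61 (adjusted p = 0.00807) and 4.06 ± 0.73 (adjusted p = 0.0136). Gm26581 lost that call without LPS replicate 2 (adjusted p = 0.0565) and had 3.19 without LPS+HACA replicate 1. Gm10825 lost it without LPS+HACA replicate 1 (3.13, adjusted p = 0.0535) and had 3.41 without LPS replicate 1 and 5.29 without LPS replicate 2.

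A130077B15Rik (chromosome 10, 122565023-122569891, minus strand) measured 2.85 and 2.30 CPM in LPS+HACA, 0.788 and 0.578 CPM in LPS, and 12.2 and 13.5 CPM in control. Replicates were close in each group and the groups were separate. It fell by 4.21 ± 0.38 in LPS against control (adjusted p = 0.000336). LPS+HACA against LPS was 1.90 ± 0.38 (adjusted p = 0.0194), lost without either control or either LPS+HACA library (adjusted p 0.0582 to 0.11).

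Gm43672 (chromosome 3, 22074412-22076142, minus strand) measured 3.04 and 3.11 CPM in LPS+HACA, 0.690 and 0.193 CPM in LPS, and 7.72 and 8.60 CPM in control. Gm13391 (chromosome 2, 6472000-6478619, plus strand) measured 2.73 and 3.45 CPM in LPS+HACA, 0.690 and 0.674 CPM in LPS, and 5.90 and 9.33 CPM in control. Neither gene's groups overlapped, and LPS was lowest in both. Gm43672 fell by 4.19 ± 0.52 in LPS against control (adjusted p = 0.00111; -5.33 and -3.55 without LPS replicate 1 and 2). Gm13391 fell by 3.46 ± 0.44 (adjusted p = 0.00121). In LPS+HACA against LPS they were higher by 2.78 ± 0.52 (adjusted p = 0.016; 3.93 and 2.14 without LPS replicate 1 and 2) and 2.16 ± 0.44 (adjusted p = 0.0201). Both of those calls were lost without either LPS+HACA library (adjusted p 0.0564 to 0.0939).

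Gm37168 (chromosome 1, 191267178-191288714, plus strand) measured 5.89 and 6.42 CPM in LPS+HACA, 0.690 and 1.64 CPM in LPS, and 7.53 and 15.5 CPM in control. Gm26912 (chromosome 12, 110842276-110845216, minus strand) measured 2.92 and 3.11 CPM in LPS+HACA, 0.690 and 0.963 CPM in LPS, and 6.21 and 9.33 CPM in control. LPS was again the lowest group in both libraries of each gene. Gm37168 fell by 3.29 ± 0.52 in LPS against control (adjusted p = 0.00303; -2.68 without control replicate 2 and -4.04 without LPS replicate 2), and Gm26912 fell by 3.22 ± 0.42 (adjusted p = 0.00135). In LPS+HACA against LPS they were higher by 2.39 ± 0.52 (adjusted p = 0.0242; 3.14 without LPS replicate 2) and 1.85 ± 0.42 (adjusted p = 0.0281). The first call was lost without either LPS+HACA library (adjusted p 0.08 and 0.0804), and the other without any one library except LPS replicate 2 (adjusted p 0.0524 to 0.111). The remaining 20 falls in LPS that met none of the naming criteria ran from -2.34 to -0.94, with a median of -1.53.

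Jpx and Ftx are neighbouring X-linked lincRNAs of the X-inactivation centre (X, 103493556-103623790) that regulate Xist. Ftx measured 5.28 and 3.79 CPM in LPS+HACA, 0.985 and 0.385 CPM in LPS, and 5.71 and 4.30 CPM in control. Jpx measured 5.59 and 5.75 CPM in LPS+HACA, 3.35 and 2.22 CPM in LPS, and 6.65 and 7.14 CPM in control. For both genes LPS lay below the other groups, and LPS+HACA overlapped control for Ftx only. Ftx fell by 2.86 ± 0.51 in LPS against control (adjusted p = 0.00488; -3.66 without LPS replicate 1) and was higher by 2.72 ± 0.51 in LPS+HACA against LPS (adjusted p = 0.0155; 3.53 without LPS replicate 1), a call lost without LPS+HACA replicate 1 (adjusted p = 0.0797). Jpx fell by 1.31 ± 0.34 in LPS against control (adjusted p = 0.0215), lost without either control library or LPS replicate 2 (adjusted p 0.0645 to 0.125). Its LPS+HACA against LPS difference was 1.02 ± 0.34 (adjusted p = 0.082). Of 9 listed nuclear lincRNAs 4 were members: Neat1, Jpx and Ftx fell in LPS against control and Malat1 was not called, where 14.3% of all genes tested and 14.7% of genes with at least 300 counts fell. The median log2 difference of these 4 members was -1.49, against -0.05 over all genes tested and 0.14 over genes with at least 300 counts. This describes 4 genes chosen with results known.

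Between LPS+HACA and LPS, 21 members rose (13.3%) and 15 fell (9.49%). Of all 17113 genes tested, 5.74% rose and 7.67% fell, and of genes with at least 300 counts 6.91% rose and 11.4% fell. The members' share of rises was above both backgrounds, and their share of falls lay between the 2. The median log2 difference was 0.22 over the members, 0.06 over all genes tested and -0.11 over genes with at least 300 counts. Rises ran from 1.01 to 4.51 with a median of 1.85, and falls from -4.80 to -1.19 with a median of -1.97. These counts rested on the LPS+HACA libraries: without LPS+HACA replicate 1 there were 3 rises and 4 falls, and without LPS+HACA replicate 2 there were 7 and 8. Without control replicate 1 there were 11 and 10, and without control replicate 2 there were 10 and 10. Scaling by library totals gave 53 rises and 8 falls, with the median of all genes at 0.70. This comparison shares its LPS libraries with the one before, so the 2 sets of values are not independent of each other.

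Gm11766 (chromosome 11, 119938511-119942074, plus strand) and 5031425F14Rik were the 2 rises that kept their call in this comparison under every alternative setting tried. Gm11766 measured 5.47 and 8.52 CPM in LPS+HACA, 1.28 and 0.963 CPM in LPS, and 6.34 and 5.42 CPM in control. LPS was lowest, and LPS+HACA overlapped control. It rose by 2.63 ± 0.40 in LPS+HACA against LPS (adjusted p = 0.00851) and fell by 2.38 ± 0.40 in LPS against control (adjusted p = 0.00396). Gm37494 on chromosome 7, among the 10 most-counted members, measured 85.6 and 103 CPM in LPS+HACA, 52.7 and 37.0 CPM in LPS, and 99.0 and 140 CPM in control. It fell by 1.42 ± 0.28 in LPS against control (adjusted p = 0.00753; 0.0745 without control replicate 2). The difference of LPS+HACA against LPS was 1.07 ± 0.28 (adjusted p = 0.0416), lost without any one library except LPS replicate 1 (adjusted p 0.0761 to 0.183).

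The remaining 9 rises and 6 falls in LPS+HACA against LPS that met none of the naming criteria lay between 1.01 and 1.88 and between -1.76 and -1.19. At the count threshold, Gm10419 measured 2.55 and 2.43 CPM in LPS+HACA, 4.63 and 12.3 CPM in LPS, and 1.88 and 1.59 CPM in control. It rose by 2.28 ± 0.50 in LPS against control (adjusted p = 0.0112; 1.41 without LPS replicate 2), lost without either control library (adjusted p 0.0736 and 0.092) and with the most-counted transcript alone (1.89, adjusted p = 0.0576). With HACA added it fell by 1.76 ± 0.48 against LPS (adjusted p = 0.0492), lost without any one library except LPS replicate 1 (adjusted p 0.0996 to 0.21) and at -0.89 without LPS replicate 2, and at -1.06 under library totals (adjusted p = 0.111). Gm32856 measured 5.83 and 3.25 CPM in LPS+HACA, 3.55 and 0.578 CPM in LPS, and 4.39 and 3.37 CPM in control. Its LPS replicates lay far apart, and it was not called in LPS against control (-0.91, adjusted p = 0.354) or LPS+HACA against LPS (1.14, adjusted p = 0.304). Without LPS replicate 1 it passed in both, at -2.72 (adjusted p = 0.0121) and 2.95 (adjusted p = 0.0158). Gm5165 measured 4.37 and 3.45 CPM in LPS+HACA, 4.33 and 1.35 CPM in LPS, and 3.39 and 4.83 CPM in control, and it was not called either (-0.53, adjusted p = 0.485, and 0.46, adjusted p = 0.594). Without LPS replicate 1 it passed in LPS against control (-1.59, adjusted p = 0.039).

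Between LPS+HACA and control, 2 members rose (1.27%) and 1 fell (0.633%), where 0.894% of all genes tested rose and 0.257% fell. Among genes with at least 300 counts the shares were 1.5% and 0.403%, and with so few calls the members cannot be set apart from either background. At an unadjusted p under 0.05 the comparison held 26 members, and DESeq2 called 6 rises and 3 falls. The shares of all genes by these 2 criteria are not given here, so these counts do not set the members apart either. Mir155hg was higher in LPS+HACA by 5.39 ± 0.46 (adjusted p = 0.00533), with 95 counts in LPS+HACA and 2 in control, a ratio of 47.2 (interval 12.7 to 395). Gm34643 was higher by 2.10 ± 0.31 (adjusted p = 0.0248) and A130077B15Rik was lower by 2.31 ± 0.32 (adjusted p = 0.0208). Mir155hg lost its call without either control library (adjusted p 0.116 and 0.137). Gm34643 (adjusted p 0.063 to 0.297) and A130077B15Rik (adjusted p 0.103 to 0.244) lost theirs without any one control or LPS+HACA library. Ptgs2os2 gave 41 counts against 3, a ratio of 13.6 (interval 4.33 to 68.6), and did not pass (adjusted p = 0.0836).

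The members' surroundings were then examined. A protein-coding gene body overlapped 29 members, lay within 5000 bases of 53 and farther off for 76, with a median distance of 4103 bases. Within 5000 bases, 19 members started upstream of the coding gene on the opposite strand, a divergent arrangement, and 16 lay downstream on its own strand, where a readthrough transcript and a separate lincRNA give the same reads. Of 16 members that rose in LPS within 5000 bases of a tested coding gene, 12 had a nearest gene that rose and 0 one that fell. Over all 76 such pairs 18 nearest genes rose. Of 16 members that fell, 5 had a nearest gene that fell and 1 one that rose, where 9 of the 76 nearest genes fell. Beyond 5000 bases, 7 of 9 members that rose had a nearest gene that rose, where 19 of 52 nearest genes rose. Of 12 such members that fell, 2 had a nearest gene that fell and 2 one that rose, where 6 of the 52 nearest genes fell.

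Across the 76 close pairs, the log2 differences of member and nearest gene in LPS against control had a Pearson r of 0.51, or 0.57 without the 2 pairs whose coding gene was farthest from the median. Across the 52 farther pairs r was 0.50, and 0.13 without 2 such pairs, Ptgs2os2 with Ptgs2 among them. For LPS+HACA against LPS r was 0.47 for close pairs and 0.52 without 2 of them, and 0.27 for farther pairs and 0.10 without 2 of them. These are descriptions across genes within the same 6 libraries, some pairs share a coding gene or exons, and genes are not independent replicates.

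**Figure D4:**
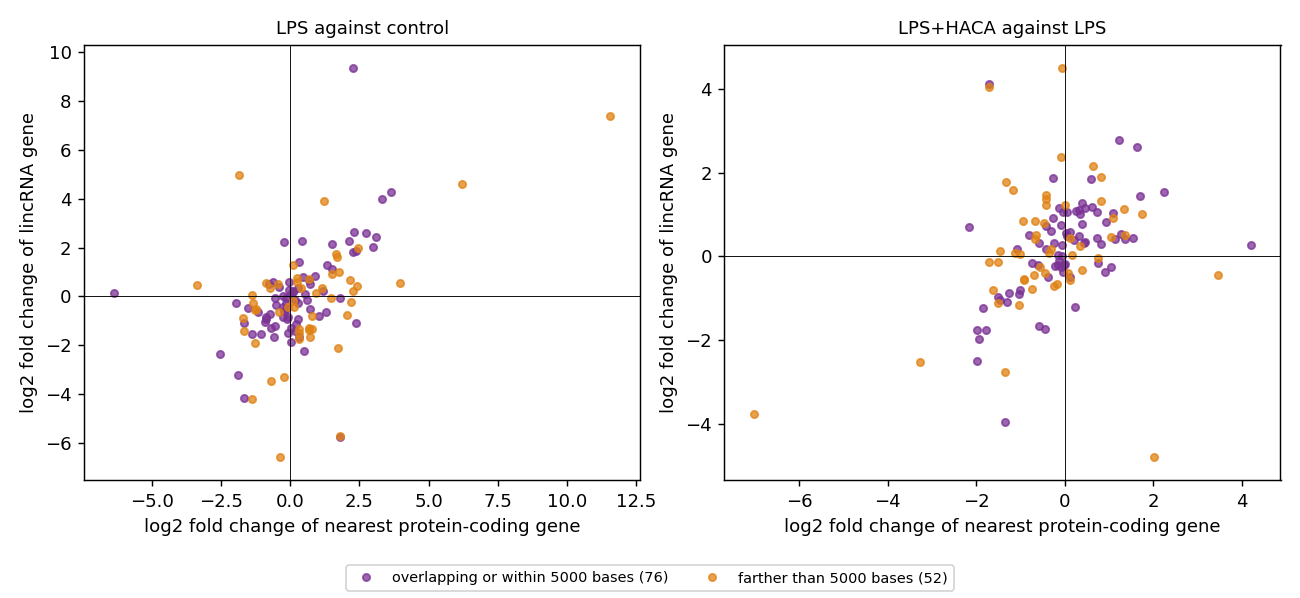
Log2 fold change of each member (vertical axis) against that of its nearest protein-coding gene (horizontal axis) in LPS against control (left) and LPS+HACA against LPS (right); purple pairs overlap or lie within 5000 bases (76) and orange pairs lie farther apart (52). Close pairs run along the rising diagonal (r 0.51 and 0.47), and the orange point farthest to the right in the first panel is Ptgs2os2 with Ptgs2.

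Ptgs2, which makes the prostaglandin synthase COX-2, lies 50816 bases from Ptgs2os2 on the opposite strand. It had 51.4 and 62.1 CPM in LPS+HACA, 6881 and 7729 CPM in LPS, and 2.07 and 2.71 CPM in control. The rise of Ptgs2 was 11.57 ± 0.33 in LPS against control (adjusted p = 8.89e-06) and its fall in LPS+HACA against LPS was -7.01 ± 0.27 (adjusted p = 0.000104), both of greater size than those of Ptgs2os2.

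Acod1, which makes itaconate in activated macrophages, lies 22520 bases from Gm34643 on the same strand. It had 2244 and 2912 CPM in LPS+HACA, 20481 and 29355 CPM in LPS, and 240 and 441 CPM in control. The rise of Acod1 was 6.19 ± 0.40 in LPS against control (adjusted p = 0.000138) and its fall in LPS+HACA against LPS was -3.27 ± 0.35 (adjusted p = 0.00353).

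Bcl2l11, which encodes the death factor BIM, is 15772 bases from Gm14005. It had 102 and 75.3 CPM in LPS+HACA, 169 and 279 CPM in LPS, and 90.0 and 103 CPM in control, with a rise of 1.21 ± 0.29 in LPS against control (adjusted p = 0.0168) and a fall of 1.34 ± 0.29 in LPS+HACA against LPS (adjusted p = 0.025). Bcl2l11 and Gm14005 had the same direction in those comparisons. In LPS+HACA against control neither was called, with 1.12 for Gm14005 (adjusted p = 0.321) and -0.12 for Bcl2l11 (adjusted p = 0.957).

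Close pairs that moved alike included Gm14963 with Ehd1, an endocytic recycling gene. Ehd1 had 513 and 765 CPM in LPS+HACA, 1931 and 3110 CPM in LPS, and 153 and 253 CPM in control, a rise of 3.63 ± 0.37 in LPS against control (adjusted p = 0.000557). Lztfl1, which overlaps Gm17200, rose by 3.30 ± 0.30 (adjusted p = 0.000344), and Mrpl39, 2331 bases from Mir155hg, rose by 2.25 ± 0.23 (adjusted p = 0.000512). Other genes hold 32.6% of the 50-base words of Gm17200, Lztfl1 most of all, and whether the same reads entered both values was not tested. Among falls, Tbl1xr1, a corepressor subunit 510 bases from Gm43672 in a divergent arrangement, fell by 1.67 ± 0.25 (adjusted p = 0.00254). Baiap2, 689 bases from Gm11766, fell by 2.53 ± 0.46 (adjusted p = 0.00552), and Mok, 1337 bases from Gm26912, fell by 1.88 ± 0.42 (adjusted p = 0.012).

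Some pairs did not move together. Raet1e, an NKG2D ligand gene that overlaps Gm26581, had 1.21 and 0.744 CPM in LPS+HACA, 4.43 and 2.02 CPM in LPS, and 1.19 and 0.661 CPM in control. Its rise of 1.79 ± 0.58 in LPS against control (adjusted p = 0.0494) had the opposite sign to the fall of Gm26581. Dmap1, 17915 bases from Gm12840, had -1.87 ± 0.62 in LPS against control and did not pass (adjusted p = 0.0545). Frmd8, 4224 bases from Neat1, had 0.31 ± 0.23 (adjusted p = 0.338).

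Members also lay beside each other. Within 50000 bases of another member were 24 of the 158, in 11 clusters. Besides those named, Gm20342 on chromosome 1 (63117118-63126837, plus strand), inside the gene body of the member Ino80dos, fell by 2.26 ± 0.29 in LPS against control (adjusted p = 0.00124), and Ino80dos fell by 0.94 (adjusted p = 0.0372). The call of Ino80dos was lost with DESeq2, without a low-count filter and without any one library, while that of Gm20342 was kept in all of these. Malat1 and Neat1, in one cluster, differed in call.

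Of 78 promoter windows of the 64 matched members, the ISRE was found in 3 (3.85%), and in 3.44% of all 32851 windows. All 3 windows belonged to members that rose in LPS, Ptgs2os2, Gm46224 and Gm36161, among 14 windows of rises (21.4%), and 0 of 18 windows of falls had it. Gm46224 rose by only 0.92 ± 0.27 in LPS against control (adjusted p = 0.0361). Its call was lost with library totals, with the most-counted transcript and without any one library except LPS replicate 2. Gm36161 lost its call with library totals and without either control library or LPS replicate 2. The NF-kB motif, searched as GGG, any 2 bases and TTTCC, was found in 5.13% of members' windows and 1.63% of all, with 1 among the rises, in Gm35585. Its LPS libraries stood at 16.8 and 4.33 CPM, with a rise of 2.44 ± 0.64 in LPS against control (adjusted p = 0.024). That call was lost with library totals and without either control library or LPS replicate 1. AP-1 was found in 10.3% of members' windows and 7.81% of all, and in 1 window of a rise. PU.1 was found in 7.69% and 3.2%, with 0 among rises and 2 among falls, in 5031425F14Rik and D130017N08Rik. The fall of D130017N08Rik in LPS against control (-2.14 ± 0.56, adjusted p = 0.0233) lost its call without either control library. Several of the 6 members' windows with PU.1 belonged to a single member that was not called, so these windows are not separate genes. TATA was found in 11.5% and 13.6%. Both strands were searched, and overlapping matches of different motifs were each counted. The windows of rises are few, and a match describes letters only.

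Shared sequence limited part of the set. No exonic base was shared with another gene in 106 members, more than 10% were in 26 and more than 50% in 7. By 50-base words, 54 members had none in another gene, 43 had more than 10% and 21 had more than 50%. Members also differed by replicate number: 29 were higher in replicate 1 in all 3 groups and 42 were lower. The shares of all genes that did so are not given here, and no cause was tested. Only 3 members differed at least 2-fold in all groups. Those 3, Bc1, Gm4316 and AC158975.2, were higher in replicate 1, as were the summed stromal and cycling markers, and none of the 3 was called in any comparison. Bc1 for example had 43.5 and 17.6 CPM in LPS+HACA, 53.4 and 25.6 CPM in LPS, and 35.9 and 17.4 CPM in control. Other genes hold 31.1% of the 50-base words of Bc1, 28.9% of those of Gm4316 and 84.4% of those of AC158975.2.

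Other listed families held few members. Of 21 snoRNA host genes, which include Gas5, 0 were members, because the annotation types those with most counts as processed transcripts, and of 7 imprinted lincRNAs 0 were members. Of 3 loci at ribosomal DNA repeats, Gm26917 was the only member.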

How the data were processed

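Poly-A RNA from 6 libraries was sequenced with TruSeq chemistry, per the labels' protocols. The submitters' processing notes name the aligner STAR 2.5.4b and the build GRCm38, beside trimming and statistics tools, and neither the counting program nor its use of strand. The authors deposited raw counts per transcript and FPKM values, per the file headers. Counts were summed per gene with GENCODE vM21: 141524 of 142647 transcripts matched, and the others held at most 0.115% of a library. A robust quasi-likelihood model by group (edgeR 4.0.16, R 4.3.3, TMM factors, 3 residual degrees of freedom) was fitted to the 17113 genes passing filterByExpr. It was also run on simulated counts drawn independently for each library, which cannot show how it handles replicates that deviate together. Adjusted p-values are Benjamini-Hochberg over all genes tested, called under 0.05. Alternatives were RLE factors, library totals, no filter, DESeq2 1.42.0, each gene's most-counted transcript, a replicate block and leaving out each library. Ratios of low counts have exact 95% intervals. Promoters and microRNAs come from RefSeq (GRCm38.p6). Named members were, per comparison, the 8 largest called rises and falls whose libraries did not overlap, then the 10 most counted, those in role lists and those nearest the threshold. Others (Bc1, Gm4316, AC158975.2, Gm7292, Gm13833, Gm27019, Gm20342, Ino80dos, Gm46224, Gm35585 and D130017N08Rik) were named after their values were seen. Members and lists were chosen with earlier results of these data known.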

Additional observations from a re-analysis of the deposited data

How the results depend on the processing

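No called member changed sign under any alternative. Between LPS and control, 15 of 32 rises and 16 of 33 falls kept their call in all 12 settings, and between LPS+HACA and LPS 2 of 21 rises (5031425F14Rik and Gm11766) and 4 of 15 falls (Gm34643, Mir155hg, Gm12840 and Ptgs2os2). Leaving out 1 library gave 15 to 30 rises and 16 to 43 falls in LPS against control, 3 to 29 and 4 to 17 in LPS+HACA against LPS, and 0 to 6 and 0 to 2 in LPS+HACA against control. These fits have fewer samples, and a lone library is assumed to vary like the other groups. Library totals gave 19 rises and 59 falls in LPS against control and 53 and 8 in LPS+HACA against LPS. Without a low-count filter there were 34 rises in LPS+HACA against LPS, and 9 rises and 5 falls in LPS+HACA against control. DESeq2 gave 6 and 3 in that last comparison. The cause was not tested. The median of all genes itself moved to -0.69 and 0.7 in the first 2 comparisons under library totals. Shares of all genes called under each alternative are not given here, so these counts do not set the members apart.

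Same-numbered replicates deviated together (r 0.31 for LPS and control, 0.50 for LPS+HACA and LPS, 0.51 for LPS+HACA and control, across 17113 genes). With 2 pairs and no label of shared origin, whether they share more than a number cannot be told. The replicate block kept all 65, 36 and 3 calls. It gave 36 rises and 44 falls in LPS against control, 31 and 24 in LPS+HACA against LPS, and 9 and 7 in LPS+HACA against control. Shares of all genes called with the block are not given here, so these counts describe the members without setting them apart.

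Some differences that did not pass turned sign. With library totals these were, in LPS against control, Gm26917 at -0.12, Gm42047 at -0.13, Trp53cor1 at -0.23, 2900097C17Rik at -0.29, Mir142hg at -0.30 and Gm42031 at -0.50. In LPS+HACA against LPS they were Lncpint at 0.11, Gm26917 at 0.15, 2900097C17Rik at 0.24 and Mir142hg at 0.41, and with the most-counted transcript Trp53cor1 at -0.03. Leaving out 1 library put Malat1 between -0.60 and 0.29, 1700020I14Rik between -0.55 and 0.13, Gm42047 between -0.12 and 0.89, Gm42031 between -0.01 and 0.27 and Gm5165 between -1.59 and 0.08 in LPS against control. The ranges in LPS+HACA against LPS were -0.27 to 0.56 for Malat1, -0.01 to 0.67 for 1700020I14Rik, -0.33 to 0.68 for Gm42047, -0.55 to 0.10 for Mir142hg, -0.24 to 0.47 for Trp53cor1 and -0.15 to 1.53 for Gm5165.

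Some members named as not called passed elsewhere. Without a low-count filter these were Gm26917 in LPS against control (0.53, adjusted p = 0.0204) and in LPS+HACA against LPS (-0.51, adjusted p = 0.0447), Mir17hg (1.60, adjusted p = 2.97e-05, and -1.05, adjusted p = 0.0176) and, in LPS+HACA against LPS, Gm36161 (-1.15, adjusted p = 0.000737). With the replicate block they were Mir17hg (1.51, adjusted p = 0.000682, and -1.07, adjusted p = 0.00839) and, in LPS+HACA against LPS, Gm36161 (-1.16, adjusted p = 0.00106) and Jpx (1.03, adjusted p = 0.0465). DESeq2 called Mir17hg in LPS against control (1.62, adjusted p = 0.0239), and library totals called Jpx (1.65, adjusted p = 0.0215) and Gm42031 (0.90, adjusted p = 0.0417) in LPS+HACA against LPS. Without LPS replicate 1, Gm32856 passed in both comparisons (-2.72, adjusted p = 0.0121, and 2.95, adjusted p = 0.0158), Gm5165 in LPS against control (-1.59, adjusted p = 0.039) and Jpx in LPS+HACA against LPS (1.35, adjusted p = 0.0385).

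Depth limits the set: 68 of 158 members had under 100 counts in some group, 51 of them in LPS, and 2 libraries a group leave 3 residual degrees of freedom.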
